A study of Homo sapiens with 4 samples.

Results

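Kidney tubule transporters are the membrane proteins with which the nephron takes salt, glucose, phosphate, organic ions and water out of, or into, the forming urine. Their messages were examined in HEK293 cells, the line made from human embryonic kidney that is used to express cloned receptors. The 10 genes were chosen by name, as transporters known from the nephron: SLC22A2, SLC22A6, SLC22A8, SLC22A12, SLC5A2, SLC12A1, SLC12A3, SLC34A1, AQP1 and AQP2. All 10 had probes on the array and passed to the analysis without a filter on low values, out of 17217 genes that could be named. RNA came from 4 cultures of a single untreated group, with no treated or control group, and each was hybridised to its own expression array. All cells carry the adenovirus DNA with which the line was transformed, and the labels call the cell type normal. A transformed line grown on plastic is a limited model of a tubule, because it forms no nephron and may come from any cell of the starting tissue.

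In the nephron each of these genes has its own place. The proximal tubule takes back most of the filtered glucose, phosphate, urate and water, and it secretes organic anions and cations. The thick ascending limb and the distal convoluted tubule reabsorb sodium chloride through cotransporters that loop diuretics and thiazides block, and the collecting duct adjusts water under vasopressin. Several of these genes serve as segment markers of the mature kidney, while AQP1 lies in both the proximal tubule and the thin descending limb.

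The question was which of these transporters have message above the level of genes that the study held unlikely to be expressed. The study took that level from 11 seminal proteins, of which 10 could be matched here. The baseline was set array by array, at 2 SD above the average of these 10 genes, and a gene was called detected where its distance to the baseline, averaged over the 4 arrays, was above 0. Distances are in log2 units. The baseline was 9.47, 9.94, 10.69 and 10.32 on replicates 1 to 4. The controls SPATA5 and SPATA13 had mean levels of 9.97 and 9.72, at mean percentiles of 46.3 and 43.8 among all genes. They thus did not read as silent genes, and without them the baseline averaged 7.78. With them it averaged 10.10, near the median level of 10.37 over all genes.

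None of the 10 tubule transporters was detected (0 of 10), while 52.7% of all named genes were. Every one of their 40 values, 10 genes on 4 arrays, lay below the baseline, and 39.8% of all named genes lay below it on all 4 arrays. The median distance of the 10 genes was -3.22 log2 units, with a range from -3.43 to -1.78, against 0.26 over all named genes. In the limma test of the lower tail all 10 lay below the baseline, as did 41% of all genes. The largest of the 10 adjusted p-values was 6.07e-07, for SLC34A1. The fit gave every gene the same standard error of 0.351, less than the 0.769 that SLC34A1's own arrays gave. With a prior that followed intensity and resisted outliers, all 10 again lay below, beside 40% of all genes. That fit gave SLC34A1 a standard error of 0.379, also less than that of its own arrays. An exact sign-flip test on 4 arrays cannot go below 0.0625 (one-sided), which leaves no room for a single gene to pass 0.05 by it. A probe's own affinity enters each value, so that the distances of different genes do not rank their messages. Nor does a value below the baseline show that a message is absent, as no kidney RNA was measured to show that these probes respond. Sets of probes for the same gene can disagree, as for WNK1 at 3.45 and -2.53.

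**Figure D1:**
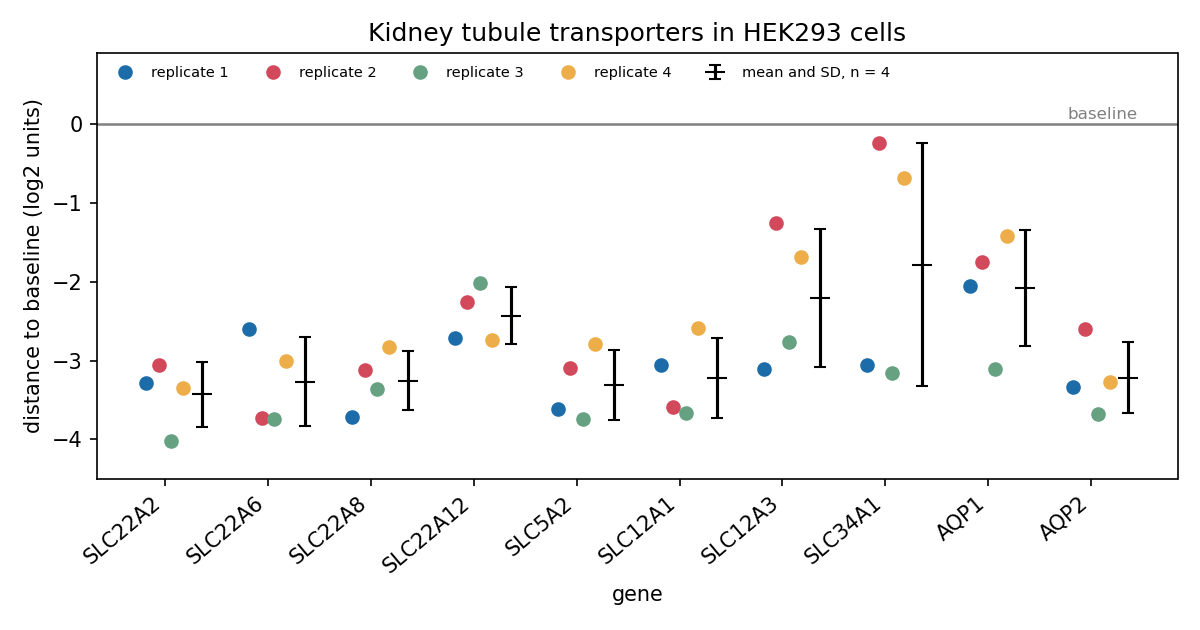
Distance to the baseline in log2 units (y axis) for the 10 transporter genes (x axis), with a point for each replicate and a bar for the mean and SD over 4 arrays. All 40 points lie below the line at 0, and SLC34A1 comes nearest, at -0.24 on replicate 2.

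As a feature the choice of genes did not use, the stretch of DNA before the gene start was read from RefSeq for assembly GRCh38.p14, which held 9 of the 10 genes. In the last 60 bases before the start, searched on the transcript strand alone, 4 of the 9 (44.4%) held the letters TATAAA of a TATA box, compared with 3.09% of 27305 windows of the same length. Among the paralogs described further on, 2 of 9 SLC5 and 2 of 9 aquaporin windows (22.2% each) held it, and none of 11 SLC22 or 6 SLC12 windows did. The sequences are shown because these 4 genes share the box at nearly the same place, with its first base at -31 in SLC12A3 and SLC34A1, -30 in AQP1 and -29 in AQP2. They run 5′ to 3′ and end at the base before the start, with the box in capitals. SLC12A1 is added as an example without these exact letters, though it reads tatatt at nearly the same place, which the search did not count.
SLC12A3: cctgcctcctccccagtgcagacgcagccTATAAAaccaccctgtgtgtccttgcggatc
SLC34A1: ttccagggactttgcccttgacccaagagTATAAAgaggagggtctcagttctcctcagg
AQP1: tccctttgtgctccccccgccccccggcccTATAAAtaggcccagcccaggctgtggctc
AQP2: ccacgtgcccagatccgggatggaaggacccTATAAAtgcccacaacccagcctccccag
SLC12A1: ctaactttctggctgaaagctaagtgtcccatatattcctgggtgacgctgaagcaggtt
They lie at chr16:56865147-56865206 (plus strand), chr5:177384374-177384433 (plus strand), chr7:30911793-30911852 (plus strand), chr12:49950677-49950736 (plus strand) and chr15:48206242-48206301 (plus strand).

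The 250 bases before the start held 0 to 9 CpG dinucleotides in the 9 genes, with a median of 5. The median was 9 over the 6219 windows of genes not detected on the arrays and 22 over the 7588 windows of detected genes. TATAAA in the last 60 bases was likewise found in 6.9% of the windows of undetected genes and in 1.58% of those of detected genes. A match of letters is not a binding site, and no test was made of these shares.

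Organic ions are handled in the proximal tubule by the SLC22 family. SLC22A6 (OAT1) and SLC22A8 (OAT3), which are neighbours on chromosome 11, carry drugs and other organic anions in from the blood side, and SLC22A2 (OCT2) does so for cations. SLC22A2 stood at -3.29, -3.05, -4.02 and -3.35 log2 units from the baseline on replicates 1 to 4. Its mean was -3.43 ± 0.41 (SD, n = 4). SLC22A8 stood at -3.72, -3.12, -3.36 and -2.83, with a mean of -3.26 ± 0.37 (SD, n = 4). The 4 distances of each gene lay close together and none was within 2 log2 units of the baseline. Before the baseline was subtracted the levels of SLC22A8 were 5.75, 6.81, 7.33 and 7.49. Their SD was 0.79, against a median SD of 0.42 over all genes.

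SLC22A6 gave -2.60, -3.73, -3.74 and -3.00, with a mean of -3.27 ± 0.56 (SD, n = 4). It alone of the 10 genes had 2 targets, that is, sets of probes designed on separate transcripts, and these stood at -3.30 and -3.24. Both sets name a probe at transcript position 751 and another at position 1532. These same-named probes differed by 0.13 to 1.77 log2 units on a given array. On replicate 1 the probe at position 1532 read 6.37 in the first set and 8.14 in the second.

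SLC22A12 (URAT1) is the apical exchanger through which urate is reabsorbed. It stood at -2.72, -2.25, -2.01 and -2.74 from the baseline, with a mean of -2.43 ± 0.36 (SD, n = 4). None of its 4 values was within 2 log2 units of the baseline.

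SLC5A2 (SGLT2) reclaims filtered glucose with sodium and is the target of the gliflozins. Its distances were -3.62, -3.10, -3.74 and -2.79, with a mean of -3.31 ± 0.44 (SD, n = 4). SLC34A1 (NaPi-IIa) is the main apical phosphate carrier, withdrawn from the membrane under parathyroid hormone. It stood at -3.06 and -3.16 on replicates 1 and 3 but at -0.24 and -0.69 on replicates 2 and 4, a mean of -1.78 ± 1.54 (SD, n = 4). Replicates 2 and 4 were thus close to the baseline and replicates 1 and 3 far below it, and the SD was the largest of the 10 genes.

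The 3 probes of SLC34A1 did not all move together. The probe at position 2330 read 6.34, 11.14, 8.48 and 10.92 log2 units on replicates 1 to 4, above the baseline on replicates 2 and 4. The probe at position 1780 read 6.70, 7.58, 6.83 and 8.57, and that at position 1357 read 6.15, 5.53, 6.42 and 5.88. The high values of the gene on replicates 2 and 4 thus rested mainly on a single probe. It was the only one of the transporters' 33 probes that lay above the baseline on any array, and it gave the only 2 of 132 probe values that did so. With probes averaged after taking logs SLC34A1 stood at -2.22, and with their median at -2.64.

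**Figure D2:**
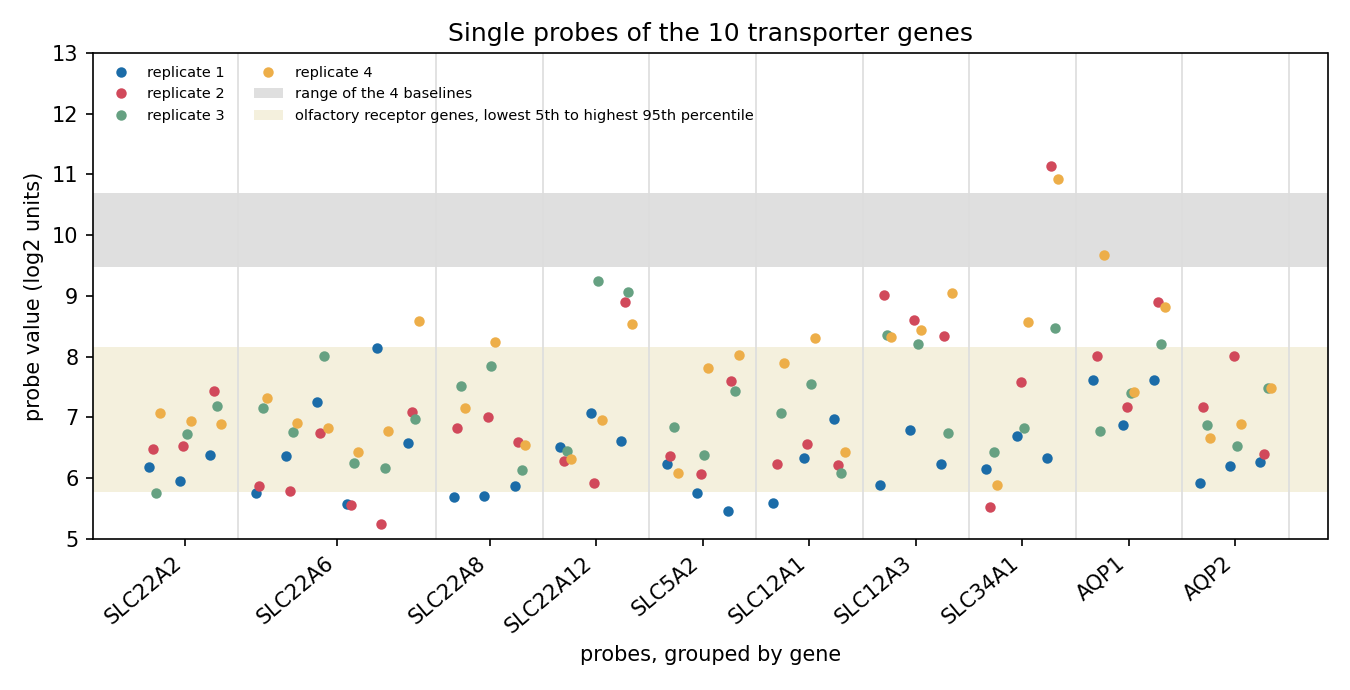
Values of the 33 single probes in log2 units (y axis), grouped by gene (x axis), with a point for each replicate. The grey band spans the baselines of the 4 arrays and the yellow band the levels of olfactory receptor genes, from the lowest 5th to the highest 95th percentile of an array. A single SLC34A1 probe lies above the grey band, at 11.14 and 10.92 on replicates 2 and 4.

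The sodium chloride cotransporters were both below the baseline. SLC12A1 (NKCC2), the furosemide-sensitive carrier of the thick ascending limb, stood at -3.06, -3.59, -3.67 and -2.58, with a mean of -3.23 ± 0.51 (SD, n = 4). SLC12A3 (NCC), the thiazide-sensitive carrier of the distal convoluted tubule, stood at -3.11, -1.26, -2.76 and -1.68, with a mean of -2.20 ± 0.88 (SD, n = 4). Like SLC34A1, SLC12A3 read higher on replicates 2 and 4 than on replicates 1 and 3. All 3 of its probes read lowest on replicate 1. On replicate 3 they read 8.35, 8.21 and 6.74 log2 units.

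Both water channels were below the baseline as well. AQP1, which makes the proximal tubule and thin descending limb permeable to water, stood at -2.06, -1.74, -3.11 and -1.42, with a mean of -2.08 ± 0.73 (SD, n = 4). AQP2, which vasopressin brings to the surface of collecting duct principal cells, stood at -3.34, -2.60, -3.68 and -3.27, with a mean of -3.22 ± 0.45 (SD, n = 4). Averaged over replicates 1 and 3, SLC34A1, SLC12A3 and AQP1 stood at -3.11, -2.94 and -2.58. Averaged over replicates 2 and 4 they stood at -0.46, -1.47 and -1.58. The shift was not confined to these genes. All of the 10 but SLC22A6 and SLC22A12 read higher on average on replicates 2 and 4. The share of all named genes that did so was not counted. The median level of all genes was 10.46, 10.38, 10.45 and 10.34 on replicates 1 to 4. The median percentile of the 10 among all genes was 8.8, 20.1, 10.9 and 19.4 on replicates 1 to 4. Neither pair of arrays detected any of the 10 transporters, beside 53.6% and 52.4% of all genes. This grouping of the arrays was chosen after the values were seen, and what separates the arrays was not tested. On replicates 2 and 4 alone SLC34A1 was no longer below the baseline in the limma test (adjusted p = 0.204).

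How far down the scale the transporters lay can be read against olfactory receptor genes, a family that kidney cells largely leave silent. The mean level of 364 such genes had a median of 6.68 log2 units and a 95th percentile of 7.69. Of the 10 transporters 7 lay at or below that percentile, between 6.68 for SLC22A2 and 7.67 for SLC22A12. The other 3, above it, were SLC12A3 at 7.90 ± 1.09, AQP1 at 8.02 ± 0.68 and SLC34A1 at 8.32 ± 1.62 (SD, n = 4 for each). Of all named genes 75.1% lay above it. Taken array by array, none of these 3 was above its array's 95th percentile on replicates 1 and 3, and all 3 were on replicates 2 and 4. On replicate 2 SLC12A3, AQP1 and SLC34A1 read 8.68, 8.19 and 9.70, against a 95th percentile of 7.77. On replicate 3 they read 7.93, 7.58 and 7.53, against 8.16.

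The call depended on the height of the baseline for 4 genes, those 3 and SLC22A12. With 1 SD in place of 2, or with 3, none was detected (0 of 10), beside 64.3% and 39.1% of all genes, though with 1 SD SLC34A1 at -0.47 was no longer below the baseline (limma adjusted p = 0.24). With olfactory receptor genes as controls the baseline averaged 8.02 log2 units, and 2 of 10 transporters were detected beside 71.4% of all genes. These were SLC34A1 at 0.30 ± 1.60 and AQP1 at 0.00 ± 0.67 (SD, n = 4 for each), with limma adjusted p-values of 0.315 and 0.697. Without SPATA5 and SPATA13, the brightest of the control genes, the baseline was 7.78 and 3 of 10 were detected beside 74% of all genes. SLC34A1 then stood at 0.54, AQP1 at 0.24 and SLC12A3 at 0.12, with limma adjusted p-values of 0.0859, 0.271 and 0.468, and each was above the baseline on 2 of 4 arrays. Under either baseline limma called none of the 10 above it (0 of 10), beside 66.3% and 68.6% of all genes. Under both, SLC22A2, SLC22A6, SLC22A8, SLC5A2, SLC12A1 and AQP2 remained below the baseline on all 4 arrays.

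The wider families held members that were well above the baseline. Of 48 measured paralogs 12 were detected (25%), beside 52.7% of all genes, 9 of them on all 4 arrays beside 45% of all genes, and limma called 10 above the baseline beside 45.9% of all genes. Among the SLC22 paralogs 4 of 17 were detected. These were SLC22A23, an orphan carrier, at 2.79 ± 0.67, the carnitine transporter SLC22A5 (OCTN2) at 1.93 ± 0.84, the iron-siderophore receptor SLC22A17 at 1.43 ± 0.78, and SLC22A4 (OCTN1) at 0.17 ± 0.90 (SD, n = 4 for each). SLC22A4 exceeded the baseline on 2 of the arrays but did not pass limma's test (adjusted p = 0.618).

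Among the SLC5 paralogs 2 of 10 were detected, neither of them a glucose carrier. The vitamin transporter SLC5A6 stood at 3.13 ± 0.44 and the myo-inositol transporter SLC5A3 at 2.52 ± 0.84 (SD, n = 4 for each). Of 11 measured aquaporin paralogs the glycerol and water channel AQP3, which sits on the blood side of principal cells, was alone detected. It stood at 1.59 ± 0.54 (SD, n = 4) and above the baseline on all 4 arrays.

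The cation-chloride cotransporters of family SLC12 gave 3 of 6 paralogs detected. SLC12A2 (NKCC1), the widely expressed relative of the kidney's SLC12A1, stood at 2.04, 1.79, -0.42 and 0.97, with a mean of 1.09 ± 1.11 (SD, n = 4, limma adjusted p = 0.0022). Without replicate 2 it stood at 0.86 and no longer passed (limma adjusted p = 0.0562). On replicates 3 and 4 alone it stood at 0.27. The potassium chloride cotransporter SLC12A7 (KCC4) stood at 1.86 ± 0.63 (SD, n = 4). SLC12A9 at 0.24 ± 0.40 and SLC12A4 (KCC1) at -0.57 ± 0.41 were not separated from the baseline, while the neuronal SLC12A5 (KCC2) at -3.46 ± 0.34 and SLC12A8 at -3.37 ± 0.49 lay below it (SD, n = 4 for each). SLC12A9 moved to -0.29 when probes were averaged after taking logs.

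Phosphate carriers divided by family. SLC20A1 (PiT-1) and SLC20A2 (PiT-2), which most cells use to feed themselves phosphate, stood at 4.82 ± 0.67 and 1.89 ± 0.44, while SLC34A2 and SLC34A3 stood at -2.69 ± 0.42 and -2.66 ± 0.74 (SD, n = 4 for each). Both SLC20 genes were above the baseline on all 4 arrays, and the SLC34 genes, SLC34A1 included, on none of them.

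**Figure D3:**
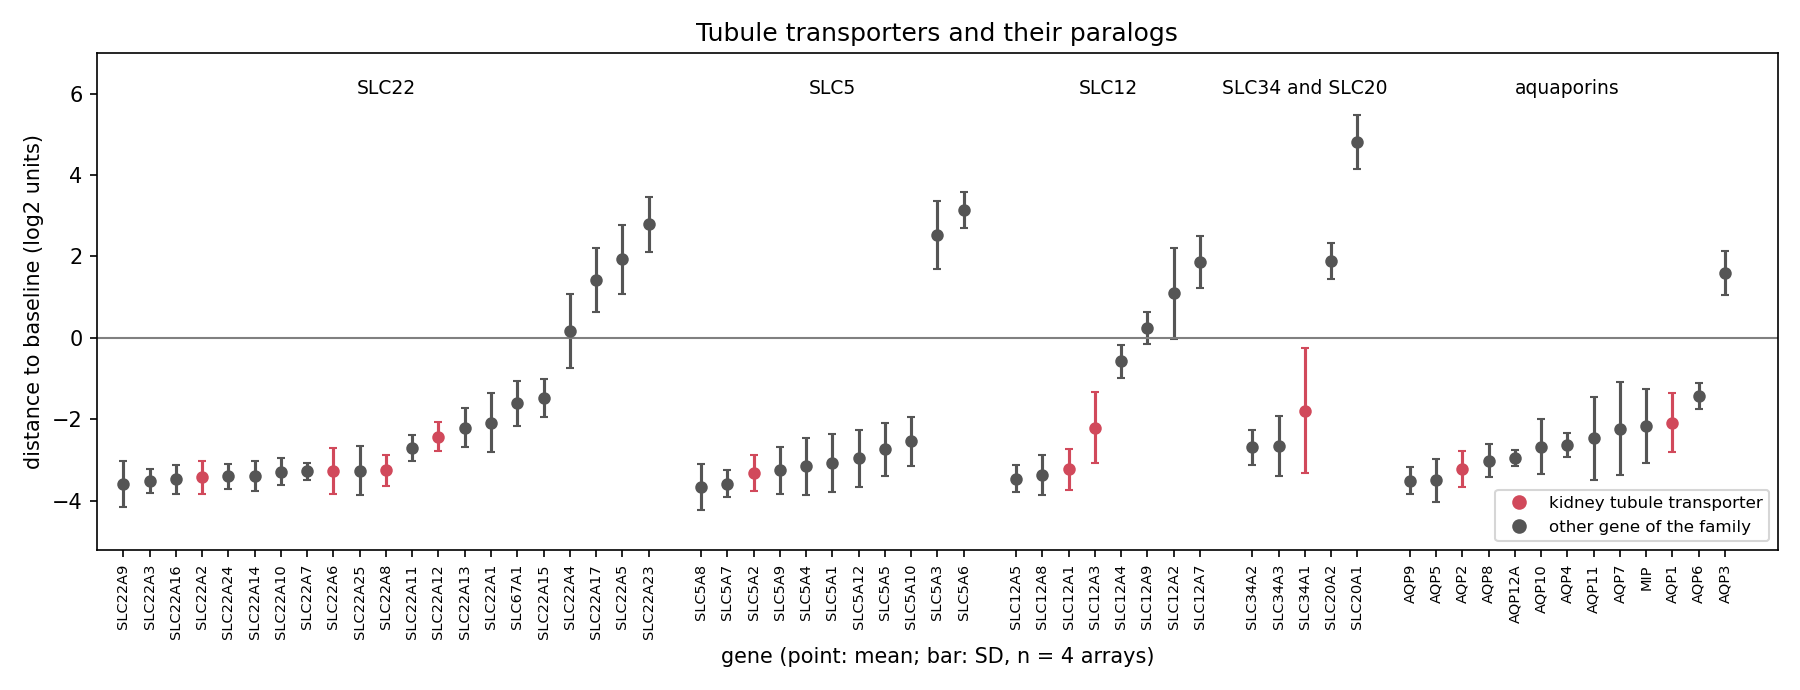
Mean distance to the baseline in log2 units (y axis) of the 10 tubule transporters (red) and their measured paralogs (grey), ordered within each family (x axis), with bars for the SD over 4 arrays. All red points lie below 0, while SLC20A1 at 4.82 and SLC5A6 at 3.13 lead the grey points.

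Other genes of the same tubule segments were counted next. Over 4 lists 9 of 61 were detected, with a median distance of -2.56, beside 52.7% of all genes. The thick ascending limb gave 0 of 10, a list that holds the urinary protein gene UMOD and the potassium channel gene KCNJ1, at -2.41 ± 0.43 and -2.97 ± 0.46 (SD, n = 4 for each). The distal convoluted tubule gave 1 of 8, the magnesium-handling gene CNNM2 at 0.93 ± 0.32 (SD, n = 4). When probes were averaged after taking logs, CNNM2 stood at 0.68 (limma adjusted p = 0.0665).

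The proximal tubule gave 4 of 27. ABCC4 (MRP4), an organic anion export pump that many tissues use, stood at 2.48 ± 0.71, and SLC47A1 (MATE1), which passes organic cations on into the urine after SLC22A2 has taken them up, at 1.65 ± 0.71 (SD, n = 4 for each). With the median of its probes SLC47A1 stood at 0.66 (limma adjusted p = 0.313). The endocytic receptor LRP2 (megalin) stood at 1.27 ± 0.68, while its partner CUBN stood at -2.49 ± 0.53 (SD, n = 4 for each). The bicarbonate cotransporter SLC4A4 stood at 0.49 ± 0.77 (SD, n = 4) and was not separated from the baseline (limma adjusted p = 0.168).

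The collecting duct gave 4 of 16. The proton pump subunit ATP6V1C2 stood at 4.42, 3.69, 0.78 and 2.94, a mean of 2.96 ± 1.57 (SD, n = 4), and AQP3 was given above. With the median of its probes ATP6V1C2 stood at 1.10. HSD11B2, which shields the mineralocorticoid receptor from cortisol, and that receptor's gene NR3C2 stood at 0.33 ± 0.18 and 0.09 ± 0.96 (SD, n = 4 for each), and limma separated neither from the baseline. AVPR2, the vasopressin receptor through which AQP2 is recruited, stood at -2.56 ± 0.57 (SD, n = 4).

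The proteins that set these transporters' activity gave 11 of 21 detected (52.4%), beside 52.7% of all genes, with a median distance of 0.28 against 0.26. Limma called 9 of the 21 above the baseline, beside 45.9% of all genes. SPAK (STK39) and OSR1 (OXSR1), the kinases that phosphorylate SLC12 cotransporters, stood at 2.24 ± 1.05 and 3.76 ± 0.54 (SD, n = 4 for each). Of the WNK kinases above them, WNK1 stood at 0.46 ± 0.18 (SD, n = 4, limma adjusted p = 0.197), with targets at 3.45 and -2.53 that disagreed. WNK3 stood at -1.33 ± 0.55 and WNK4 at -1.03 ± 0.52 (SD, n = 4 for each). Without replicate 4 WNK4 stood at -0.87 and was no longer below the baseline (limma adjusted p = 0.0667). CUL3, a subunit of a ubiquitin ligase that most cells contain and that removes WNK kinases, stood at -2.55 ± 0.38 (SD, n = 4).

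The aldosterone-responsive kinase SGK1 stood at 1.45 ± 0.74 and the ubiquitin ligase NEDD4L, which it restrains, at 2.52 ± 0.70 (SD, n = 4 for each). The catalytic subunit of protein kinase A PRKACA, the anchoring protein AKAP1 and the actin regulator LIMK1 stood at 3.29 ± 0.50, 3.15 ± 0.44 and 1.88 ± 0.93 (SD, n = 4 for each). LIMK1 moved to 1.23 when probes were averaged after taking logs. Among the scaffolds that hold SLC34A1 and other apical carriers, NHERF1 stood at 4.06 ± 0.36 and NHERF2 at 2.28 ± 0.57, against -0.55 ± 0.71 for PDZK1 (SD, n = 4 for each). The gene of the PDZK1-interacting protein, PDZK1IP1, stood at -2.57 ± 0.53 (SD, n = 4). PDZK1 was not separated from the baseline, but with the median of its probes it lay below, at -1.04 (limma adjusted p = 0.00739), as it did without replicate 1, at -0.84 (limma adjusted p = 0.0196). The apical sorting protein gene MAL stood at -2.45 ± 0.53 (SD, n = 4). Of the genes through which phosphate hormones act, FGFR1 stood at 0.28 ± 0.35, PTH1R at -2.21 ± 0.58 and KL (klotho) at -3.44 ± 0.35 (SD, n = 4 for each). FGFR1 moved to -0.14 when probes were averaged after taking logs and to -0.27 with their median.

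HNF4A and HNF4G, transcription factors of the proximal tubule, were not detected. HNF4A stood at -3.01 ± 0.11 and HNF4G at -3.18 ± 0.97 (SD, n = 4 for each). With olfactory receptor genes as controls WNK3, WNK4 and PDZK1 lay above the baseline, at 0.75, 1.06 and 1.54, whereas HNF4A and HNF4G lay below it.

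Of 6 subunit genes of the sodium pump, which drives all sodium-coupled uptake, 3 were detected (50%), a share near the 52.7% of all genes. ATP1B3 stood at 4.28 ± 0.76, ATP1B1 at 3.70 ± 0.85 and ATP1B2 at 3.20 ± 0.61 (SD, n = 4 for each). The kidney's regulatory subunit FXYD2 stood at -2.34 ± 0.43, and ATP1A4 and ATP1B4 stood at -2.43 ± 0.35 and -2.88 ± 0.48 (SD, n = 4 for each).

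The labelled origin was set against general markers. Of 14 kidney epithelium and progenitor markers 8 were detected (57.1%), near the 52.7% of all genes. Limma called 6 above the baseline, beside 45.9% of all genes, leaving out SIX2 at 0.04 and EYA1 at 0.11. When probes were averaged after taking logs 6 were detected, beside 8866 of 17217 genes. The detected genes included VIM at 5.26 ± 0.64, KRT8 at 4.80 ± 0.66, CDH2 at 4.59 ± 0.73, EPCAM at 3.84 ± 0.90 and SALL1 at 1.90 ± 0.30 (SD, n = 4 for each). SALL1 moved to 0.92 when probes were averaged after taking logs. PAX2 and PAX8, which define the nephric lineage, stood at -1.63 ± 0.74 and -3.12 ± 0.90 (SD, n = 4 for each), below the baseline on all 4 arrays. For PAX2 this depended on the height of the baseline. Its mean level of 8.48 was above that of 98.4% of olfactory receptor genes, while PAX8 had a mean level of 6.98. The olfactory baseline averaged 8.02, which lies below the level of PAX2 and above that of PAX8. Under it 12 of the 14 markers were detected, beside 71.4% of all genes. Markers of podocytes and kidney vessels gave 3 of 10 detected (30%, beside 52.7% of all genes), with a median of -2.30. Limma called 2 of them above the baseline, beside 45.9% of all genes. Only PODXL at 2.36 ± 0.65 (SD, n = 4) was above it on all 4 arrays, beside 45% of all genes. With the median of probes 1 was detected, beside 8648 of 17217 genes. Neuronal markers gave 7 of 11 detected (63.6%, beside 52.7% of all genes), with a median of 1.59. Limma called 6 of them above the baseline, beside 45.9% of all genes. The remaining gene, NEFM, averaged 0.66 ± 3.08 (SD, n = 4) and lay above the baseline on replicates 1 and 3, by 4.10 on replicate 1, but below it on replicates 2 and 4, at -1.62 and -2.24. All 20 reference genes were detected on all 4 arrays, with a median of 4.62.

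**Figure D4:**
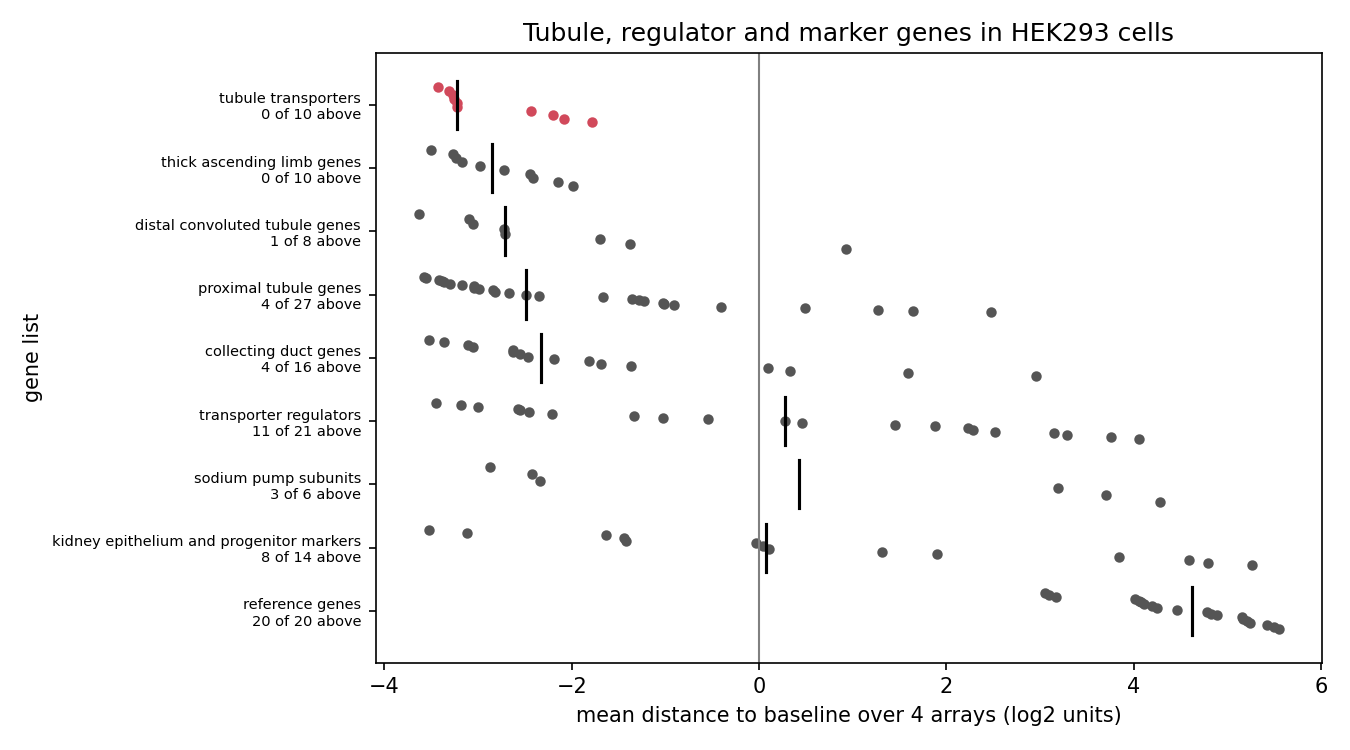
Mean distance to the baseline in log2 units over 4 arrays (x axis) for each gene of the tubule transporters (red) and of 8 other lists (grey, y axis), with a black bar at each list's median. The transporters have a median of -3.22 and the reference genes one of 4.62.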

How the data were processed

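RNA of 4 HEK293 cultures was hybridised in 1 colour to NimbleGen long-oligonucleotide arrays designed on HG18. The table that the authors deposited gives each probe's level on each array as a log2 value, and the submitters' processing notes name RMA with no step given. Sorted values are nearly identical within replicates 1 and 2 and within 3 and 4. No raw intensities were used, and the number of arrays limits precision. Accessions of the 71998 probes (24000 targets) were matched to RefSeq symbols of GRCh38.p14, which named 19125 targets of 17217 genes. Probes were averaged within a target on the linear scale and logged, and targets were averaged within a gene. Of 11 control genes 10 were matched. Distances were tested against 0 in each tail with limma 3.58.1 in R 4.3.3, with Benjamini-Hochberg adjustment over all genes at 0.05. The fit was also run on simulated distances with the same spread for all genes. That run does not test genes with a wider spread, or errors that the genes of an array share. Since all genes of an array share its baseline, their tests are not independent. P-values rest on the spread between 4 separate cultures of 1 line, pooled over all genes, and not on each gene's own spread. They do not count the uncertainty of a baseline set by 10 control genes.

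The transporters and all lists were chosen with earlier results of these data known. Named are the 10 transporters and, of the controls, SPATA5 and SPATA13. So is every remaining gene of the lists of regulators, sodium pump subunits, SLC12 paralogs and phosphate carriers. Of other lists up to 5 genes above the baseline on all 4 arrays are named. The neuronal and reference lists were counted, and of their genes only NEFM is named. SLC22A4, SLC4A4, NR3C2, UMOD, KCNJ1, CUBN, AVPR2, PAX2, PAX8, SIX2, EYA1 and NEFM were named after their values were seen. Some genes of these lists are not reported here and were left out of the lists and their counts. Other probe summaries, baselines, controls, normalizations, filters, fits and subsets of arrays were tried as alternatives.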

Additional observations from a re-analysis of the deposited data

How the results depend on the processing

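The baseline set the counts. It was 8.79 log2 units with 1 SD, 11.42 with 3 SD, 7.78 without SPATA5 and SPATA13 and 8.02 with olfactory receptor genes. Transporters detected were 3 and 2 of 10 under the last pair and 0 under the other alternatives, with 6 of 10 below the baseline under each of that pair and 9 or 10 otherwise. The share of all genes below the baseline was 41% in the main fit and 40% with the prior that followed intensity. It was not counted under the other settings, so the counts below cannot be set against it there. Paralogs and segment genes detected, 20 of 107 in the report, were 12 with 3 SD, 44 without SPATA5 and SPATA13 and 38 with olfactory receptor genes. Leaving out a replicate gave 0 transporters detected and 10 below each time, 18 to 20 paralogs and segment genes, a baseline from 9.91 to 10.32 and 8715 to 9343 genes detected of all. No transporter was among the genes above the median level. Signs changed for several genes. With 1 SD, WNK4 moved to 0.29, PDZK1 to 0.77 and SLC12A4 to 0.75. With 3 SD, WNK1 moved to -0.86, FGFR1 to -1.04, SLC12A2 to -0.22, SLC12A9 to -1.07, LRP2 to -0.051, CNNM2 to -0.39 and HSD11B2 to -0.98. Without SPATA5 and SPATA13, SLC12A3 moved to 0.12, SLC34A1 to 0.54, AQP1 to 0.24, WNK3 to 1.00, WNK4 to 1.30, PDZK1 to 1.78, PTH1R to 0.11 and SLC12A4 to 1.75. With olfactory receptor genes, SLC34A1 moved to 0.30, AQP1 to 0.0017, WNK3 to 0.75, WNK4 to 1.06, PDZK1 to 1.54 and SLC12A4 to 1.51. Each of these follows from the height of the baseline alone. The way probes were summarised turned FGFR1 and SLC12A9, neither of them called, and the cause was not tested. Of the alternative distances of the transporters 160 kept their sign and call, 5 lost the call and 5 changed sign. Replicates 1 and 3 alone and 2 and 4 alone were added after the data were seen. No paired analysis was possible because the design holds 1 group.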
